A study of Rattus norvegicus with 6 samples.

Results

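The genes described here are 46 rat genes of DNA repair and of the DNA damage checkpoint, measured in TEG3, OEC Lp and OEC Ep, which are 3 populations of cultured olfactory ensheathing cells (OECs). They were chosen by name, as every probe set whose only annotated symbol was one of the 46. Of these genes, 44 had such a probe set, out of 14371 genes on the arrays. All 44 were on the RAE2.0 array and 15 were also on the U34A array, while Atm and Fanci were matched on neither and were not analysed here. A cell repairs a broken strand, a mismatched base or a crosslink with separate sets of enzymes. Breaks of both strands are rejoined by end joining at any time or copied from the sister chromatid by homologous recombination, which needs a replicated chromosome. The kinases ATR and ATM sense damage and act through CHK1 and CHK2 to hold the cell cycle, and many of these genes are transcribed most strongly in dividing cells, in part under E2F factors held back by the retinoblastoma protein.

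OECs are the glia that ensheath the axons of the olfactory nerve. TEG3 is an OEC line from Wistar rats 60 days old, made by transfection of a plasmid for the large T antigen of the virus SV40 and by clonal selection, so it stands for 1 clone. Large T binds the retinoblastoma protein and p53. OEC Lp is a primary culture from the olfactory nerve layer of Wistar rats 21 days old, kept for more than 50 population doublings, and OEC Ep is the same kind of culture after 1 week and fewer than 3 doublings. The donors of TEG3 and those of the primary cultures therefore differed in age. The medium of all was DMEM to which 3% serum, pituitary extract (20 µg/ml) and forskolin (2 µM) were added, and OEC purity over 90% by staining is stated for OEC Lp and OEC Ep. The labels name no DNA-damaging treatment, and RNA levels do not measure repair activity. Total RNA of each population was hybridised to 1 U34A and 1 RAE2.0 array (6 arrays in all). The design text describes 2 RNA pools of 3 cultures each per population, without saying which pool went on which array. With 1 array per population and type, p-values here measure how far the 2 array types differed in the ratios between populations. That spread mixes differences between probes with any between RNA pools, and may be technical.

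Values are MAS5 signals on a linear scale. Signals under a floor of 128.4 on U34A and 168.0 on RAE2.0, the 40th percentile of the type, were set to the floor for ratios and tests. A ratio on a single array type against a population at the floor is therefore written "at least". Estimates fitted over both types are printed plainly, and can be too small where a population was at the floor on either type. Signals are printed as measured, and signals of different genes are not compared, since probe sets differ in brightness. All 15 and all 44 genes had a probe set above the floor on at least 1 array. Markers of OECs and Schwann cells were not alike in the populations. On RAE2.0, 7 of 7 were above the floor in OEC Ep, while 1 of 7 was above it in TEG3 (Sox10) and 1 of 7 in OEC Lp, with S100b, Ngfr and Gfap at the floor in both on this array. Their summed signal was 891 in TEG3, 544 in OEC Lp and 68320 in OEC Ep. On U34A 6 of 6 were above the floor in TEG3, 4 of 6 in OEC Lp and 6 of 6 in OEC Ep, with sums of 9931 in TEG3, 8732 in OEC Lp and 57270 in OEC Ep. Ngfr, at the floor in TEG3 and OEC Lp on RAE2.0, had U34A signals of 3621 in TEG3, 2569 in OEC Lp and 12720 in OEC Ep, so the types disagreed on it. On RAE2.0, microglia and macrophage markers summed to 822 in TEG3, 934 in OEC Lp and 57140 in OEC Ep. C1qa, C1qb, Aif1 and Cd68 were at the floor in TEG3 and OEC Lp. Fibroblast and meningeal markers summed on RAE2.0 to 39560 in TEG3, 132900 in OEC Lp and 134900 in OEC Ep. The near-equal sums of OEC Lp and OEC Ep hide opposite differences. Of 7 genes, 3 were at least 2-fold higher in OEC Lp and 3 at least 2-fold lower, beside 10.4% of all genes each way. Neuron markers summed on RAE2.0 to 4364 in TEG3, 447 in OEC Lp and 37340 in OEC Ep. In TEG3, Nefl and Nefm were at the floor, while Uchl1 and Tubb3 were under 2-fold from OEC Ep. The part of these cell type differences in the results below was not tested. In such bulk samples fewer cells of a type and less RNA per cell cannot be told apart.

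On RAE2.0, 23 of the 44 genes were at least 2-fold higher in TEG3 than in OEC Ep and 0 were at least 2-fold lower. Of all 11542 genes that passed the filter, 12.0% were at least 2-fold higher and 10.6% at least 2-fold lower. In TEG3 against OEC Lp, 19 were at least 2-fold higher and 1, Lig4, was at least 2-fold lower, beside 9.61% and 8.66% of all genes. The median log2 ratio of the 44 genes in TEG3 was 1.04 relative to OEC Ep and 0.79 relative to OEC Lp, where the medians of all genes were 0.11 and 0.00. TEG3 had the highest signal of the populations for 37 of the 44 genes, OEC Lp for 5 and OEC Ep for 2, while TEG3 was highest for 38.7% of all genes. It was at least 2-fold above both primary cultures for 18 of the 44 genes, beside 5.17% of all genes. On U34A TEG3 was highest for 10 of 15 genes (33.2% of all genes) and at least 2-fold above both cultures for 2 of them (4.11% of all genes). With 1 RAE2.0 array per population these counts have no replicate check, and both comparisons share the TEG3 array.

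**Figure D1:**
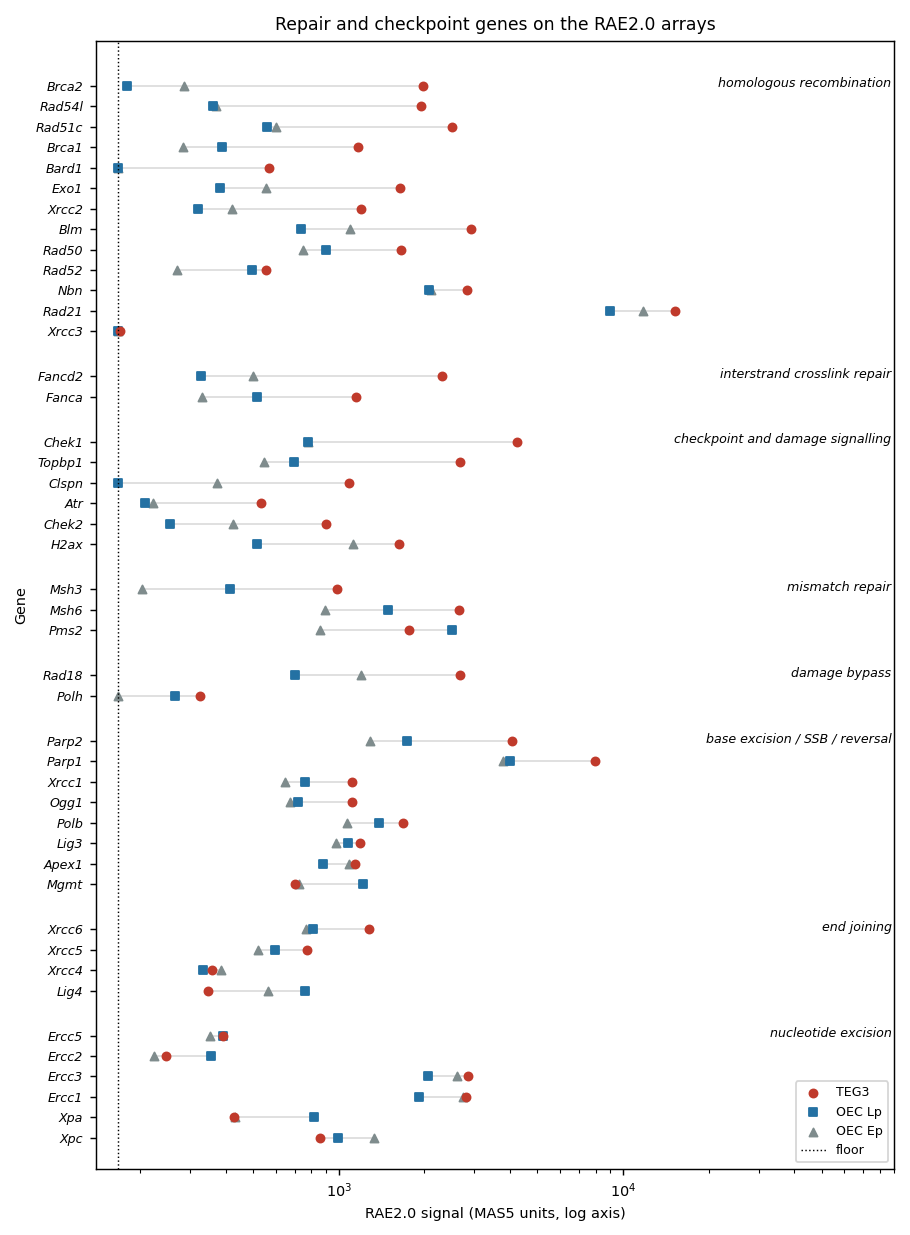
RAE2.0 signal (MAS5 units, log axis) of each of the 44 repair and checkpoint genes, averaged over its probe sets after the floor (dotted line) and grouped by role, with 1 point per array for TEG3, OEC Lp and OEC Ep. The TEG3 points lie to the right in homologous recombination, crosslink repair and checkpoint genes, and mixed with the others in nucleotide excision and end joining.

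Homologous recombination held the largest number of such genes. Of its 13 genes, 10 were at least 2-fold higher in TEG3 than in OEC Ep and 8 at least 2-fold higher than in OEC Lp, and all 13 had a ratio above 1 in both. Brca2, a tumour suppressor needed for homologous recombination, had RAE2.0 signals of 1981 in TEG3, 180 in OEC Lp and 285 in OEC Ep. This ratio of 6.95 to OEC Ep was the highest of the 44 genes on this array, and that to OEC Lp was 11.0. Rad54l, a DNA motor protein of homologous recombination, had signals of 1950 in TEG3, 361 in OEC Lp and 371 in OEC Ep. Rad51c, which also acts in homologous recombination, had signals of 2506 in TEG3, 558 in OEC Lp and 604 in OEC Ep. For both genes the primary cultures lay close together and TEG3 stood 4.15-fold to 5.40-fold above them. Brca1, a ubiquitin ligase that promotes recombination, had signals of 1170 in TEG3, 388 in OEC Lp and 284 in OEC Ep. Its partner Bard1 had a signal of 569 in TEG3 and was under the floor in OEC Lp (86) and OEC Ep (144), which makes its TEG3 ratio at least 3.39 to either.

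Xrcc2, a further recombination gene, had signals of 1199 in TEG3, 319 in OEC Lp and 420 in OEC Ep. Exo1, a nuclease that resects DNA ends, had signals of 1641 in TEG3, 382 in OEC Lp and 556 in OEC Ep. Blm, the helicase mutated in Bloom syndrome, had signals of 2922 in TEG3, 739 in OEC Lp and 1098 in OEC Ep. These 3 genes shared an order, with OEC Lp lowest and TEG3 2.66-fold to 2.95-fold above OEC Ep. Rad50, a subunit of the MRE11 complex that binds broken ends, had signals of 1594 in TEG3, 879 in OEC Lp and 730 in OEC Ep on one probe set and of 1731 in TEG3, 932 in OEC Lp and 772 in OEC Ep on another, while a further probe set did not pass the floor on any array. Rad52, which anneals strands in yeast recombination, had signals of 554 in TEG3, 495 in OEC Lp and 270 in OEC Ep, so that here OEC Lp lay beside TEG3. The other 3 genes, Nbn, Rad21 and Xrcc3, did not reach 2-fold in any comparison after the floor. Nbn, a further subunit of the MRE11 complex, had 2836 in TEG3, 2072 in OEC Lp and 2117 in OEC Ep. Rad21, the cohesin subunit, had 15217, 8997 and 11747 in the same order. Xrcc3 had 170 in TEG3 and was under the floor in OEC Lp (71) and OEC Ep (65). This makes its TEG3 ratio at least 1.01 to either, and its true size is not known.

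Both crosslink repair genes on the array were at least 2-fold higher in TEG3 than in either primary culture. Fancd2, whose ubiquitination marks a stalled fork for crosslink repair, had signals of 2307 in TEG3, 328 in OEC Lp and 501 in OEC Ep. Fanca, a subunit of the Fanconi core complex that attaches this ubiquitin, had signals of 1148 in TEG3, 516 in OEC Lp and 331 in OEC Ep. TEG3 was 4.61-fold above OEC Ep for Fancd2 and 3.47-fold above it for Fanca.

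Checkpoint genes differed in the same direction. Of 6 on the array, 5 were at least 2-fold higher in TEG3 than in OEC Ep, and all 6 were at least 2-fold higher than in OEC Lp. Chek1, the kinase that ATR activates to hold the cycle when replication stalls, had signals of 4243 in TEG3, 781 in OEC Lp and 777 in OEC Ep, so that the primary cultures were nearly equal. Topbp1, which activates ATR, had signals of 5681 in TEG3, 1441 in OEC Lp and 1382 in OEC Ep on one probe set and of 1264 in TEG3, 338 in OEC Lp and 217 in OEC Ep on another. Clspn, the adaptor through which ATR reaches CHK1, had signals of 1083 in TEG3, 125 in OEC Lp and 373 in OEC Ep, with OEC Lp under the floor. Atr itself had signals of 534 in TEG3, 209 in OEC Lp and 223 in OEC Ep, a ratio of 2.39 to OEC Ep. Chek2, the kinase downstream of ATM, had signals of 899 in TEG3, 255 in OEC Lp and 425 in OEC Ep. The exception was H2ax, the histone variant phosphorylated beside breaks. Its signals were 5403 in TEG3, 1591 in OEC Lp and 3100 in OEC Ep on one probe set and 491 in TEG3, 90 in OEC Lp and 409 in OEC Ep on another, which gives a ratio of 1.45 to OEC Ep and of at least 3.15 to OEC Lp.

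Promoters of some of these genes hold sequences of the E2F type. Windows of 300 bases, from 250 before the transcription start to 50 from the start on, were taken from RefSeq (build GRCr8, 39 of the 46 genes listed) and searched on both strands for TTTGGCGC, TTTCGCGC, TTTCCCGC and TTTGCCGC. A match was found for 7 of 39 genes (17.9%), namely Chek1, Topbp1, Clspn, Fancd2, Bard1, Msh6 and Atm, and for 2.37% of all 27457 genes with a window. Of the 20 genes with a window that were at least 2-fold higher in TEG3 than in OEC Ep, 6 had a match, as did 0 of the other 17 on RAE2.0. In a list of genes of cycling cells 7 of 17 had one (41.2%). The E2F search letters can overlap one another, as they do in Topbp1, where TTTGGCGC and TTTCGCGC share bases on opposite strands. CCAAT was found in 17 of 39 genes and in 39.6% of all genes. It was in 10 of the 20 genes at least 2-fold higher in TEG3, in 7 of the other 17 and in 12 of 17 cycling genes. TTTGAA or TTCGAA, the CHR type, was found in 9 of 39 genes and in 21% of all genes. It was in 3 of the 20 genes at least 2-fold higher in TEG3 (15%) and in 5 of the other 17 (29.4%). These shares of few genes lie on either side of the 21% of all genes. Of the cycling genes, 9 of 17 had the CHR type. As the share of windows of all genes, 2.14% held an E2F match, 37.5% CCAAT and 19.7% the CHR type. A match describes letters and does not show binding. The 4 windows shown belong to the genes with an E2F match that had the highest TEG3 ratios, with the match in capitals, and transcription starts at base 251.
Chek1, chr8:44629794-44630093, minus strand: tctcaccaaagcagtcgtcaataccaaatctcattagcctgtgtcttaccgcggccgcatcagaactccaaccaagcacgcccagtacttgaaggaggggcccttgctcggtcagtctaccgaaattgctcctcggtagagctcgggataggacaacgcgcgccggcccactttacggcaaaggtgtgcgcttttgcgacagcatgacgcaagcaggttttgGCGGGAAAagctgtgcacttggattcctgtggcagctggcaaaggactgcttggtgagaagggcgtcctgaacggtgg
Topbp1, chr8:112766541-112766840, plus strand: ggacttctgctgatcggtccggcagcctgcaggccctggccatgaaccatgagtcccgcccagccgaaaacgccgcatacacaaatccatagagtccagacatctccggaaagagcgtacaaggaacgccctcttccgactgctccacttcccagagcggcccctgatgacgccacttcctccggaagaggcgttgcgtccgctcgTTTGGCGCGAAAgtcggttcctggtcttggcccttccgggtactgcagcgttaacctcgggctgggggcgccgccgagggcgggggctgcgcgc
Fancd2, chr4:148234458-148234757, plus strand: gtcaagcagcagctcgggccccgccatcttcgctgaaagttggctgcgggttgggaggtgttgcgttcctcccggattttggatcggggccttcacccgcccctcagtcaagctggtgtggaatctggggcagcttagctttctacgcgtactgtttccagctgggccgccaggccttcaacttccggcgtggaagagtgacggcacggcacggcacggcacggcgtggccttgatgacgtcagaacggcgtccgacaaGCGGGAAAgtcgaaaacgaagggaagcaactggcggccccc
Bard1, chr9:80143706-80144005, minus strand: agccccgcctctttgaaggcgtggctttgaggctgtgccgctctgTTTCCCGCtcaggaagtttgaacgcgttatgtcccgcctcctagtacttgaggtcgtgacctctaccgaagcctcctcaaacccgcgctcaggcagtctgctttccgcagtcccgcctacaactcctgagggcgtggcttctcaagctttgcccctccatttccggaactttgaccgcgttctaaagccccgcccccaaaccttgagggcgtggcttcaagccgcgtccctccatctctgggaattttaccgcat
Counted in bases from the first transcribed base, the match began at -28 in Chek1, at -44 and -40 in Topbp1, at 9 in Fancd2 and at -205 in Bard1.

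All 3 mismatch repair genes were at least 2-fold higher in TEG3 than in OEC Ep, and 1 of them was at least 2-fold higher than in OEC Lp. Msh3, which recognises unpaired loops, had signals of 987 in TEG3, 415 in OEC Lp and 203 in OEC Ep. Msh6, which recognises mismatched bases, had signals of 2642 in TEG3, 1494 in OEC Lp and 897 in OEC Ep. Both genes kept the order TEG3, OEC Lp, OEC Ep. Pms2, which nicks the strand to be corrected, had its highest signal in OEC Lp, at 1764 in TEG3, 2496 in OEC Lp and 857 in OEC Ep. OEC Lp lay above OEC Ep for all 3 mismatch genes, by 1.67-fold to 2.91-fold.

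Damage bypass genes let replication pass a lesion. Rad18, the ubiquitin ligase that marks PCNA at a blocked fork, had RAE2.0 signals of 2660 in TEG3, 700 in OEC Lp and 1199 in OEC Ep. On U34A the signals were 658 in TEG3, 420 in OEC Lp and 591 in OEC Ep, the same order with smaller gaps. Polh, the polymerase that copies past ultraviolet lesions, had 324 in TEG3, 266 in OEC Lp and 157 in OEC Ep, where OEC Ep was under the floor and the TEG3 ratio at least 1.93.

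In base excision, strand break repair and direct reversal, 2 of 8 genes were at least 2-fold higher in TEG3 than in OEC Ep and 1 of 8 than in OEC Lp. Of all genes, 12.0% and 9.61% were, so these counts of few genes lie near those shares. Parp1, which binds strand breaks and makes poly(ADP-ribose) there, had RAE2.0 signals of 7952 in TEG3, 4003 in OEC Lp and 3794 in OEC Ep. On U34A its 2 probe sets gave 1363 in TEG3, 893 in OEC Lp and 510 in OEC Ep, and 2762 in TEG3, 1393 in OEC Lp and 1108 in OEC Ep. All 3 probe sets had the same order. Parp2, a related enzyme, had 4065 in TEG3, 1742 in OEC Lp and 1287 in OEC Ep on RAE2.0. On U34A OEC Lp was highest, with 575 in TEG3, 846 in OEC Lp and 266 in OEC Ep. The array types therefore had opposite signs for Parp2 in TEG3 against OEC Lp and the same sign in TEG3 against OEC Ep.

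Ogg1, the glycosylase for oxidised guanine, had RAE2.0 signals of 1115 in TEG3, 718 in OEC Lp and 676 in OEC Ep, and U34A signals of 227 in TEG3, 159 in OEC Lp and 43 in OEC Ep, the last under the floor. Polb, the polymerase that fills the excised gap, had RAE2.0 signals of 2224 in TEG3, 1758 in OEC Lp and 1337 in OEC Ep on one probe set and 1264 in TEG3, 1092 in OEC Lp and 850 in OEC Ep on the other. Its 3 U34A probe sets gave 382 to 622 in TEG3, 205 to 507 in OEC Lp and 225 to 450 in OEC Ep, so that the ratios of the gene, averaged over its probe sets, were under 2-fold on both types. Apex1, the nuclease that cuts at sites without a base, was contradictory. One RAE2.0 probe set gave 7775 in TEG3, 3430 in OEC Lp and 4465 in OEC Ep, the other gave 165 in TEG3, 227 in OEC Lp and 263 in OEC Ep, and the U34A one gave 3954 in TEG3, 1726 in OEC Lp and 1603 in OEC Ep. The dim probe set thus went against the other 2. Xrcc1, a scaffold for this repair, had 1116 in TEG3, 761 in OEC Lp and 646 in OEC Ep. Lig3, the ligase bound to it, had 1920 in TEG3, 1744 in OEC Lp and 1492 in OEC Ep, and 730, 668 and 637 in the same order on a second RAE2.0 probe set. On U34A Lig3 was at 193 in TEG3, with OEC Lp (117) and OEC Ep (39) under the floor. Mgmt, which removes alkyl groups from guanine, was highest in OEC Lp, at 700 in TEG3, 1218 in OEC Lp and 723 in OEC Ep on RAE2.0. The brighter U34A probe set had the same order of 1299 in TEG3, 2693 in OEC Lp and 1230 in OEC Ep, while the dimmer one gave 53 in TEG3, 221 in OEC Lp and 228 in OEC Ep.

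In end joining and nucleotide excision, 0 of 4 and 0 of 6 genes were at least 2-fold higher in TEG3 than in either primary culture. Of all genes, 12.0% were relative to OEC Ep and 9.61% relative to OEC Lp, so with so few genes these counts lie near the shares of all genes. Lig4, the ligase that seals end joining, was lowest in TEG3 on both RAE2.0 probe sets, with 393 in TEG3, 827 in OEC Lp and 587 in OEC Ep on one and 305 in TEG3, 697 in OEC Lp and 541 in OEC Ep on the other. On U34A Lig4 signals were nearly level, at 590 in TEG3, 592 in OEC Lp and 656 in OEC Ep. Xrcc5 and Xrcc6 encode the Ku subunits that hold broken ends. Xrcc5 had RAE2.0 signals of 1628 in TEG3, 1154 in OEC Lp and 929 in OEC Ep on its brighter probe set, 369, 307 and 293 in the same order on the dimmer one, and U34A signals of 923 in TEG3, 1296 in OEC Lp and 673 in OEC Ep. Xrcc6 had 1275 in TEG3, 814 in OEC Lp and 769 in OEC Ep. The probe sets of Xrcc4, the partner of LIG4, disagreed, with 578 in TEG3, 559 in OEC Lp and 879 in OEC Ep on one and 222 in TEG3, 199 in OEC Lp and 54 in OEC Ep on the other.

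Among the nucleotide excision genes, which remove bulky lesions, the median log2 ratio of TEG3 was 0.08 to OEC Ep and -0.11 to OEC Lp. Ercc1, a subunit of the nuclease that cuts on one side of the lesion, had 2801 in TEG3, 1921 in OEC Lp and 2740 in OEC Ep on RAE2.0 and 1323 in TEG3, 1270 in OEC Lp and 1205 in OEC Ep on U34A. The helicases of the transcription factor TFIIH are Ercc2, with 247 in TEG3, 356 in OEC Lp and 224 in OEC Ep, and Ercc3, with 2850 in TEG3, 2065 in OEC Lp and 2614 in OEC Ep. Ercc5, the nuclease that cuts on the other side, had 392 in TEG3, 392 in OEC Lp and 354 in OEC Ep. Xpa, which checks the damage, had 428 in TEG3, 816 in OEC Lp and 431 in OEC Ep. Xpc, which finds it and is also a target of p53, had 861 in TEG3, 996 in OEC Lp and 1335 in OEC Ep. On RAE2.0 OEC Lp was lowest for Ercc1 and Ercc3 and highest for Ercc2 and Xpa, and on U34A OEC Ep was lowest for Ercc1.

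**Figure D2:**
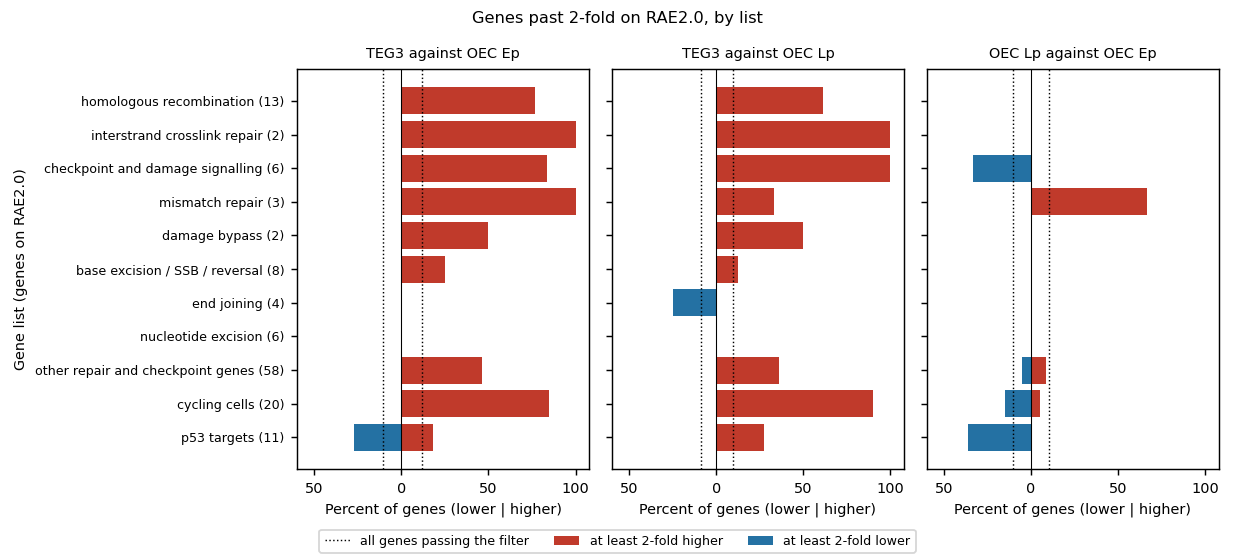
Percent of the genes of each list on RAE2.0 that were at least 2-fold higher (right) or at least 2-fold lower (left) in each comparison, with the number of genes in brackets and dotted lines at the percent of all genes. Among the groups of the 44 genes in TEG3 against OEC Ep, the bars of homologous recombination (10 of 13) and checkpoint genes (5 of 6) pass the line. So do those of crosslink repair (2 of 2), mismatch repair (3 of 3), damage bypass (1 of 2) and base excision (2 of 8). Nucleotide excision and end joining have no bar.

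The log2 ratio on RAE2.0 was above 0 for 39 of the 44 genes relative to OEC Ep and for 38 relative to OEC Lp, beside 56.0% and 49.6% of all genes. The values just past the 2-fold limit in TEG3 against OEC Ep were those of Rad52 (log2 1.04) and Pms2 (1.04), and the first value under it was that of Polh (at least 0.95).

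**Figure D3:**
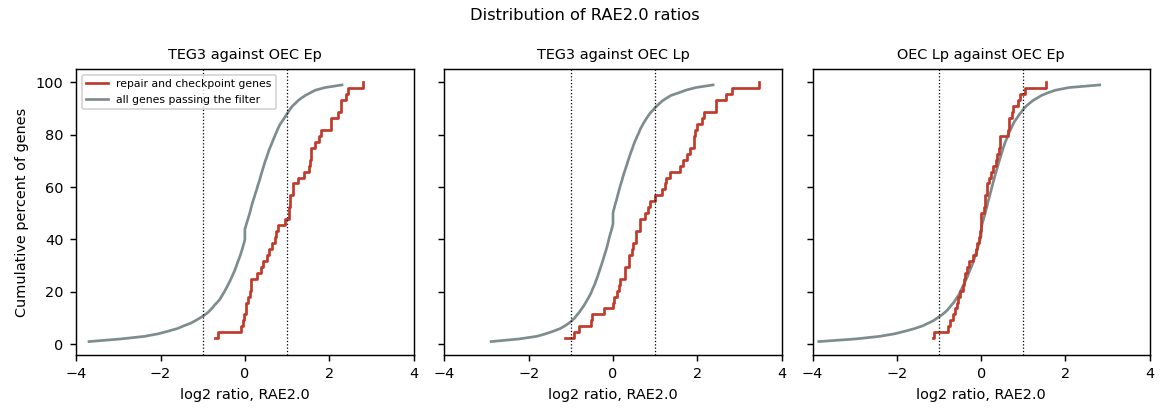
Cumulative percent of genes (vertical axis) by log2 ratio on RAE2.0 (horizontal axis) for the repair and checkpoint genes and for all genes passing the filter, in each comparison, with dotted lines at 2-fold. The median of the 44 genes in TEG3 was 1.04 over OEC Ep and 0.79 over OEC Lp, and in OEC Lp it was 0.04 over OEC Ep.

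For the 15 genes on both array types, limma fitted population and array type to 3131 genes, with the p adjusted over all of them by the Benjamini-Hochberg method. In TEG3 against OEC Ep, 0 of the 15 genes passed an adjusted p of 0.05 in limma, while 0.639% of all genes were called higher and 3.70% lower. At an unadjusted p under 0.05, limma gave 4 of the 15 as higher (Parp1, Brca2, Parp2 and Ogg1) beside 8.88% of all genes. On U34A alone, 5 of 15 were at least 2-fold higher and 0 lower, beside 10.5% and 12.9% of all genes. Brca2 had U34A signals of 263 in TEG3, 49 in OEC Lp and 42 in OEC Ep, with both primary cultures under the floor. Its log2 ratio over both types was 1.92 ± 0.605 (SE, n = 2 arrays per population, limma adjusted p = 0.153). With the floor at the 20th percentile it was 2.72 and passed (limma adjusted p = 0.0468), and over all alternatives the limma adjusted p ran from 0.0468 to 1. The log2 ratio of Brca2 was 0.87 without the RAE2.0 array of TEG3 and 2.96 without its U34A array. For Parp1 the log2 ratio was 1.22 ± 0.307 (SE, limma adjusted p = 0.0988), with a 95% interval from 0.45 to 1.98. Parp2 had a log2 ratio of 1.39 ± 0.482 (SE, limma adjusted p = 0.182) and Ogg1 one of 0.77 ± 0.292 (SE, limma adjusted p = 0.213). The remaining estimates ran from -0.43 for Lig4 to 1.02 for Brca1, with limma adjusted p from 0.241 to 0.919. The median of the 15 was 0.69, against 0.04 for all genes.

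The types gave the same sign in TEG3 against OEC Ep for 14 of the 15 genes, with 12 higher on both and 2 lower on both (Mgmt and Lig4), while 64.5% of all genes kept their sign. Mgmt was lower on U34A through its dimmer probe set, under the floor in TEG3, while its brighter U34A probe set had a log2 ratio of 0.079. With the highest probe set standing for each gene, its limma log2 ratio over both types was 0.016. The exception was Brca1, whose U34A signals of 84 in TEG3, 166 in OEC Lp and 66 in OEC Ep were under the floor in TEG3 and OEC Ep. H2ax had U34A signals of 3204 in TEG3, 2914 in OEC Lp and 1298 in OEC Ep, so that OEC Lp lay near TEG3 there and below OEC Ep on RAE2.0. Rad52 had U34A signals of 211 in TEG3, 178 in OEC Lp and 148 in OEC Ep, the order seen on RAE2.0. Against OEC Lp, limma again called 0 of the 15, beside 0.192% of all genes higher and 1.02% lower. At an unadjusted p under 0.05 it gave 3 higher, Brca2, Parp1 and Rad18 (5.91% of all genes), and 1 lower, Mgmt (9.52%). The log2 ratio was 2.25 for Brca2 (limma adjusted p = 0.180), 1.29 ± 0.405 for Rad18 (SE, limma adjusted p = 0.229) and -0.86 ± 0.297 for Mgmt (SE, limma adjusted p = 0.263). On U34A alone 2 of 15 were at least 2-fold higher, Brca2 and Apex1, beside 8.08% of all genes. Rad18 was higher in TEG3 than in OEC Lp on both types and Mgmt lower on both.

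**Figure D4:**
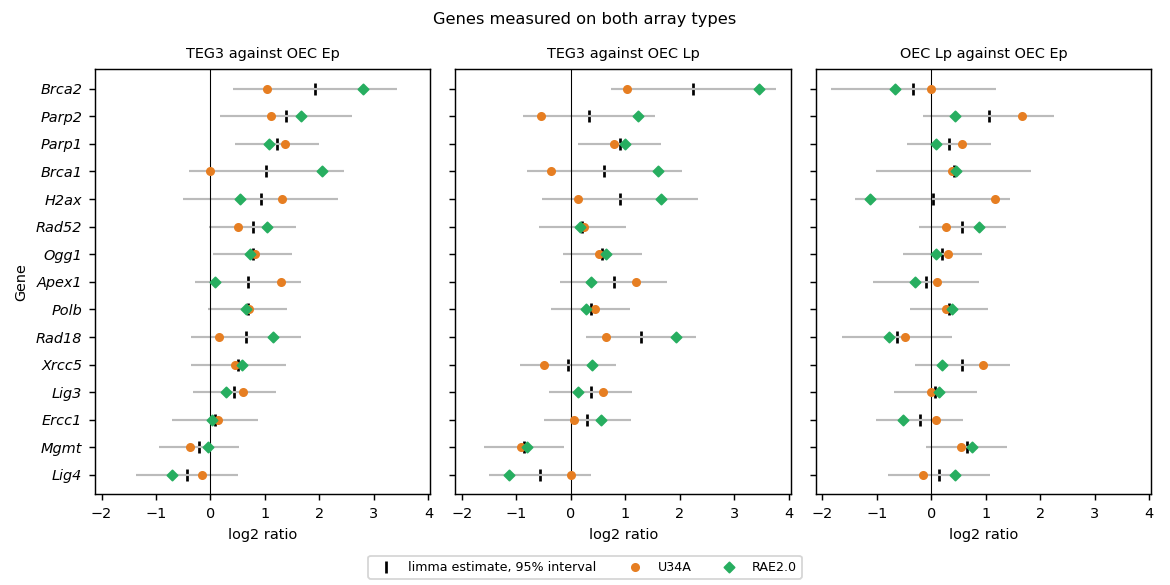
Log2 ratios of the 15 genes on both array types, with U34A (circle), RAE2.0 (diamond) and the limma estimate (bar) with its 95% interval. In TEG3 against OEC Ep the interval lies above 0 for Brca2, Parp1, Parp2 and Ogg1, and none passed the adjusted threshold.

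The comparison of OEC Lp with OEC Ep sets long against short culture without large T. On RAE2.0, 2 of the 44 genes were at least 2-fold higher in OEC Lp, Msh3 and Pms2, and 2 at least 2-fold lower, Clspn and H2ax, beside 10.4% of all genes in each direction. The median log2 ratio was 0.04, against 0.10 for all genes. Of the 15 genes on both types limma called 0, while it called 2.11% of all genes higher and 4.02% lower. At an unadjusted p under 0.05 limma also gave 0 of the 15, beside 8.82% of all genes higher. Parp2 had a log2 ratio of 1.05 ± 0.482 (SE, limma adjusted p = 0.315), with an interval from -0.15 to 2.26, and Mgmt one of 0.65 ± 0.297 (SE, limma adjusted p = 0.315). The Parp2 value was 0.30 without the U34A array of OEC Lp and 1.81 without its RAE2.0 array. On U34A alone 2 of 15 were at least 2-fold higher, Parp2 and H2ax, beside 11.0% of all genes, and 0 were at least 2-fold lower, beside 10.1%. H2ax thus had opposite signs on the array types, at least 2-fold each way. The same sign on both was seen for 9 of the 15 genes, and for 62.4% of all genes.

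Other genes of repair and checkpoints, 73 written as a list from textbook knowledge, differed in the same direction in TEG3. As this list was also chosen with earlier results of these data known, it is no independent check. Of 58 such genes on the RAE2.0 array, 27 were higher by at least 2-fold in TEG3 than in OEC Ep and 0 at least 2-fold lower. Of all genes, 12.0% and 10.6% were. In TEG3 against OEC Lp the counts were 21 and 0, beside 9.61% and 8.66% of all genes. In OEC Lp against OEC Ep they were 5 and 3, beside 10.4% of all genes each way. Of 14 on both types, limma called 2 higher in TEG3 than in OEC Ep, beside 0.639% of all genes. Timeless, which keeps the replication fork together and serves the checkpoint, rose by a log2 ratio of 2.93 ± 0.297 (SE, limma adjusted p = 0.0108). Its signals were 1350 in TEG3, 331 in OEC Lp and 184 in OEC Ep on RAE2.0 and 1020 in TEG3, 291 in OEC Lp and 128.4, the floor, in OEC Ep on U34A. Ung, the glycosylase that removes uracil from DNA, rose by 2.79 ± 0.317 (SE, limma adjusted p = 0.0160), with 3666 in TEG3, 2161 in OEC Lp and 655 in OEC Ep on RAE2.0 and 1091 in TEG3, 474 in OEC Lp and 128.4, the floor, in OEC Ep on U34A. It also rose in OEC Lp against OEC Ep, by 1.80 ± 0.317 (SE, limma adjusted p = 0.0349), and was the only gene of this list called there. Of all 3131 genes limma called 0 in TEG3 against OEC Ep without the replicate block, with the 4 arrays of those populations alone or with any array left out, so these calls ended there. In OEC Lp against OEC Ep it also called 0 without the block or with any of the 4 arrays of those populations left out. In TEG3 against OEC Lp limma called 0 of the 14, with 5 higher at an unadjusted p under 0.05, beside 5.91% of all genes. The next lowest p in TEG3 against OEC Ep belonged to Fen1, the flap nuclease (log2 1.95, limma adjusted p = 0.0580), Rad51ap1, a recombination factor (2.27, limma adjusted p = 0.0799), Cdc25b, a phosphatase that activates CDK1 for mitosis (1.34, limma adjusted p = 0.0860), and Rpa2, a subunit of the protein that coats bare strands (1.86, limma adjusted p = 0.129).

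Genes of cycling cells were higher in TEG3 as well. Of 20 such genes with RAE2.0 values, 17 were at least 2-fold higher in TEG3 than in OEC Ep, beside 12.0% of all genes. Relative to OEC Lp 18 were, beside 9.61% of all genes. Their summed RAE2.0 signal was 182800 in TEG3, 49750 in OEC Lp and 64620 in OEC Ep. On U34A, with 12 such genes, the sum was 95090 in TEG3, 53680 in OEC Lp and 28440 in OEC Ep. The sums of the types, over different genes, thus put the primary cultures in opposite order, as did the signals of H2ax. On U34A, 11 of the 12 genes were at least 2-fold higher in TEG3 than in OEC Ep, beside 10.5% of all genes. Relative to OEC Lp only 2 of the 12 were on U34A, beside 8.08% of all genes. The median log2 ratio of TEG3 to OEC Lp was 0.66 on U34A and 1.81 on RAE2.0, so the types differed in the size of this gap. In OEC Lp against OEC Ep the log2 ratio was above 0 for 12 of 12 genes on U34A and for 7 of 20 on RAE2.0. Of the genes on both types, only Mcm5, Mcm7, Tyms and Ccne1 were above 0 on both. Mcm7, a subunit of the replicative helicase, was the only 1 of 12 that limma called in TEG3 against OEC Ep (log2 2.75, limma adjusted p = 0.0205). Of all genes, limma called 0.639% higher there. The Mcm7 call ended under the same alternatives. At an unadjusted p under 0.05 limma gave 10 of the 12 as higher in TEG3 than in OEC Ep, beside 8.88% of all genes. The part of cell division in the repair gene differences was not tested. Targets of p53 differed by comparison and type. Of 11 with RAE2.0 values, 2 were at least 2-fold higher in TEG3 than in OEC Ep and 3 at least 2-fold lower. Of all genes, 12.0% and 10.6% were. Relative to OEC Lp these counts for TEG3 were 3 and 0, beside 9.61% and 8.66% of all genes. For OEC Lp relative to OEC Ep they were 0 and 4, beside 10.4% of all genes each way. On U34A, 0 of 5 were at least 2-fold higher in TEG3 than in OEC Ep and 2 at least 2-fold lower. For all genes on U34A these shares were 10.5% and 12.9%. Cdkn1a, the inhibitor p21, had 415 in TEG3, 421 in OEC Lp and 1008 in OEC Ep on RAE2.0, and 512 in TEG3, 439 in OEC Lp and 1488 in OEC Ep on U34A. On both types Cdkn1a signals were smaller in TEG3 and OEC Lp than in OEC Ep. Of the 5 p53 targets on both types limma called 0 in TEG3 against OEC Ep, beside 0.639% of all genes higher and 3.70% lower. At an unadjusted p under 0.05 limma gave 1 as lower, Cdkn1a, beside 12.8% of all genes, and 0 as higher, beside 8.88%.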

How the data were processed

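The authors deposited linear signal intensities, 1 column per array, made with MAS5, per the submitters' processing notes; the design text names Microarray Suite 5.0 for a filter whose setting is not given. Per the labels, RNA was extracted with TRIZOL. Within each type, arrays were brought to a common mean after trimming 2% at each end. Signals were floored at the 40th percentile, keeping probe sets above the floor on at least 1 of 3 arrays (6360 on U34A, 22185 on RAE2.0, without controls). Platform annotation gave a single symbol to 7006 and 20826 probe sets; 308 and 436 had several and 1426 and 9780 none, and these were not used for genes. Log2 signals were averaged over a gene's probe sets, which gave 3726 and 11542 genes. On U34A, 59.2 to 61.6% of probe sets were above the floor and the GAPDH 3' to 5' signal ratio was 1.54 in TEG3, 1.52 in OEC Lp and 1.96 in OEC Ep; on RAE2.0 it was 0.981 to 1.02. The number of arrays limits the precision. Genes on both types were tested with limma 3.58.1 in R 4.3.3 (population plus array type, 2 residual and 3.56 prior degrees of freedom), adjusted over 3131 genes. The replicate number is the array type, so the type term is the replicate block. RAE2.0 alone allows no test. Every gene on both types or at least 2-fold apart on RAE2.0 was to be given in full, the rest by range. Alternatives were the floor, the filter, quantile normalization, the probe set summary, the block, the arrays in the fit and leaving out each array. The genes and lists were chosen with earlier results of these data known.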

Additional observations from a re-analysis of the deposited data

How the results depend on the processing

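The number of genes at least 2-fold higher in TEG3 on RAE2.0 ran from 20 to 25 against OEC Ep and from 18 to 20 against OEC Lp over the alternatives. In OEC Lp relative to OEC Ep, quantile normalization left 1 gene at least 2-fold higher, and 0 were at least 2-fold lower where probe sets had to pass the floor on all arrays and 1 where the highest probe set stood for the gene. With the floor at the 20th percentile limma called 1 gene in TEG3 against OEC Ep, Brca2. Without the replicate block limma called 0 of the 15 genes and 0 of all genes in each comparison. Signs turned for H2ax in OEC Lp against OEC Ep (-0.20 with the floor at the 20th percentile or no floor, -0.010 with quantile normalization), Mgmt in TEG3 against OEC Ep (0.016 with the all-array filter or the highest probe set) and Xrcc5 in TEG3 against OEC Lp (0.035 with quantile normalization, 0.0032 with the highest probe set). Leaving out each array in turn, the log2 ratio ran in OEC Lp against OEC Ep from -0.93 to 0.97 for H2ax, from -0.50 to 0.31 for Apex1, from -0.12 to 0.94 for Brca1, from -1.10 to 0.44 for Brca2, from -0.49 to 0.050 for Ercc1, from -0.077 to 0.22 for Lig3 and from -0.29 to 0.57 for Lig4. It ran for Ercc1 in TEG3 against OEC Ep from -0.090 to 0.26. In TEG3 against OEC Lp it ran from -0.46 to 0.35 for Xrcc5, from -0.056 to 1.85 for H2ax, from -0.42 to 1.09 for Parp2 and from -0.39 to 1.61 for Brca1. The causes were not tested. Where an array was left out, its population had 1 array, which was assumed to vary like the others. Over all genes limma called 136 for TEG3 over OEC Ep, with 11 under no floor, 1 under no filter, 86 under the all-array filter and 0 with the 4 arrays of those populations alone. For TEG3 over OEC Lp it called 38, with 4 under the lower floor, and 0 under no floor, no filter or 4 arrays. For OEC Lp over OEC Ep it called 192, with 66 under no floor, 1 under no filter, 77 under the all-array filter and 41 with 4 arrays. Leaving out any array gave 0, except 41 for OEC Lp over OEC Ep without either TEG3 array.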
